A study of Mus musculus with 8 samples.

Results

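The 10 genes described here encode proteins of the BCL2 family, which decides whether a cell keeps or loses the integrity of its mitochondria. They were taken as a named set: the BH3-only genes Bmf, Bcl2l11, Pmaip1, Bbc3, Bid and Bad, the pro-survival genes Mcl1, Bcl2 and Bcl2l1, and the effector gene Bax. Every probe annotated to them was read, which gave 25 of 25697 probes for 9 of the 10 genes, and no probe named for Bax was used here. RNA came from 5555-mEGFP cells, a mouse melanoma line that carries a green fluorescent protein, in 4 groups of 2 arrays each. The cells were grown alone (mono-culture) or together with MAF2-mCherry fibroblasts (co-culture), and each culture received either DMSO (0.1%) or PLX4720 over 24 h. PLX4720 inhibits mutant BRAF, the kinase that drives ERK signalling in many melanomas. The sample labels state a dose of 1 mM, and whether millimolar is the right unit could not be checked. The mEGFP-positive cells of the co-cultures were collected by FACS, and whether the mono-cultures were also sorted is not stated. All groups share 1 line, so the comparisons describe that line only, and nothing states that the 2 arrays of a group come from separate cultures, so p-values cover only the variation among these arrays, part or all of which could be technical.

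In the mitochondrial pathway of apoptosis, BAX and BAK form pores in the outer mitochondrial membrane, and pro-survival proteins such as BCL2, BCL-XL (the product of Bcl2l1) and MCL1 hold them in check. BH3-only proteins carry stress signals into this balance, either by binding the pro-survival proteins or by activating the effectors directly. In melanoma cells, ERK signalling is known to restrain BIM (the product of Bcl2l11) and BMF, which makes these genes a common readout of BRAF inhibition. Array levels report RNA only, and phosphorylation, cleavage and turnover of these proteins were not measured.

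Between 9755 and 10021 probes (38% to 39%) were detected per array, and replicates correlated with r of 0.990 to 0.995 across 7357 genes. Levels are log2 values after background correction and quantile normalization, and a probe counts as detected at a detection p under 0.01. Probes detected on 2 or more of the 8 arrays were kept, with 1 probe, the one of highest mean, standing for each gene. Of the 25 member probes 17 were kept, and all 9 genes with a probe were tested. Bmf passed this filter through its PLX4720 arrays and 1 DMSO array. PLX4720 lowered 10 of 13 tested genes of ERK output in each culture, where 18.6% (mono-culture) and 12.7% (co-culture) of all genes were lower. In the other direction, 0 of the 13 rose in mono-culture and 1 rose in co-culture, where 20.2% and 14.3% of all genes did. The lowered genes included Etv4, Fosl1, Spry4 and Etv1. These 4 were detected on no mono-culture PLX4720 array and were there at least 10.7-fold, 7.85-fold, 3.48-fold and 3.14-fold lower than in DMSO. Of the 13, Etv1, Etv5 and Myc were detected on no PLX4720 array, so they passed the filter through DMSO alone. All 7 melanocyte markers with a probe, Mitf, Dct, Tyr, Tyrp1, Pmel, Mlana and Ednrb, were detected on no array, so the melanocytic origin given by the label was not visible in these markers. Of 13 fibroblast markers, 5 (Dcn, Lum, Postn, Thy1 and Fap) were detected on no array. The summed level of the fibroblast list, as a log2 value, ranged from 10.26 to 10.51 in mono-culture DMSO, 9.52 to 9.58 in co-culture DMSO, 12.74 to 13.81 in mono-culture PLX4720 and 13.07 to 13.14 in co-culture PLX4720. Acta2, the gene of smooth muscle actin, was the largest part of these sums with PLX4720, with group means of 9.11, 6.71, 13.04 and 12.85 in the same order, while the median PLX4720 change of the 8 tested markers over both cultures was 1.46. The rise of the list with PLX4720 was thus present in cells grown without fibroblasts, and its part in the changes of the members was not tested. In each culture 7 of 8 tested markers rose, where 20.2% (mono-culture) and 14.3% (co-culture) of all genes did. Of the 8, Col1a1 was detected on no DMSO array and passed the filter through PLX4720 alone. Shifts in the share of different cells and changes in RNA per cell cannot be told apart in such bulk samples.

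PLX4720 raised the BH3-only genes Bmf and Bcl2l11 in both cultures, with the largest log2 changes among the 9 members tested. In mono-culture, 4 members rose (Bmf, Bcl2l11, Bbc3 and Bad) and 1 fell (Bcl2l1), which is 5 of 9 tested, or 55.6%, where 38.7% of all genes tested passed (20.2% higher and 18.6% lower). In co-culture, 3 rose (Bmf, Bcl2l11 and Bad) and 2 fell (Pmaip1 and Bcl2l1), again 5 of 9, where 27% of all genes passed (14.3% higher and 12.7% lower). Over both cultures together 4 rose and 3 fell, against 46.5% of all genes (24.2% higher and 22.3% lower). Since PLX4720 changed so much of the transcriptome, these shares alone do not set the family apart. Calls are at a limma adjusted p under 0.05. A Student's t-test for single genes on the 4 arrays compared, without pooled spread, called 0 members after adjustment in either culture. Before adjustment, at a p under 0.05, 4 members were higher and 0 lower by this test in mono-culture, where 30.5% of all genes passed it, and 3 were higher and 2 lower in co-culture, where 26.5% did.

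**Figure D1:**
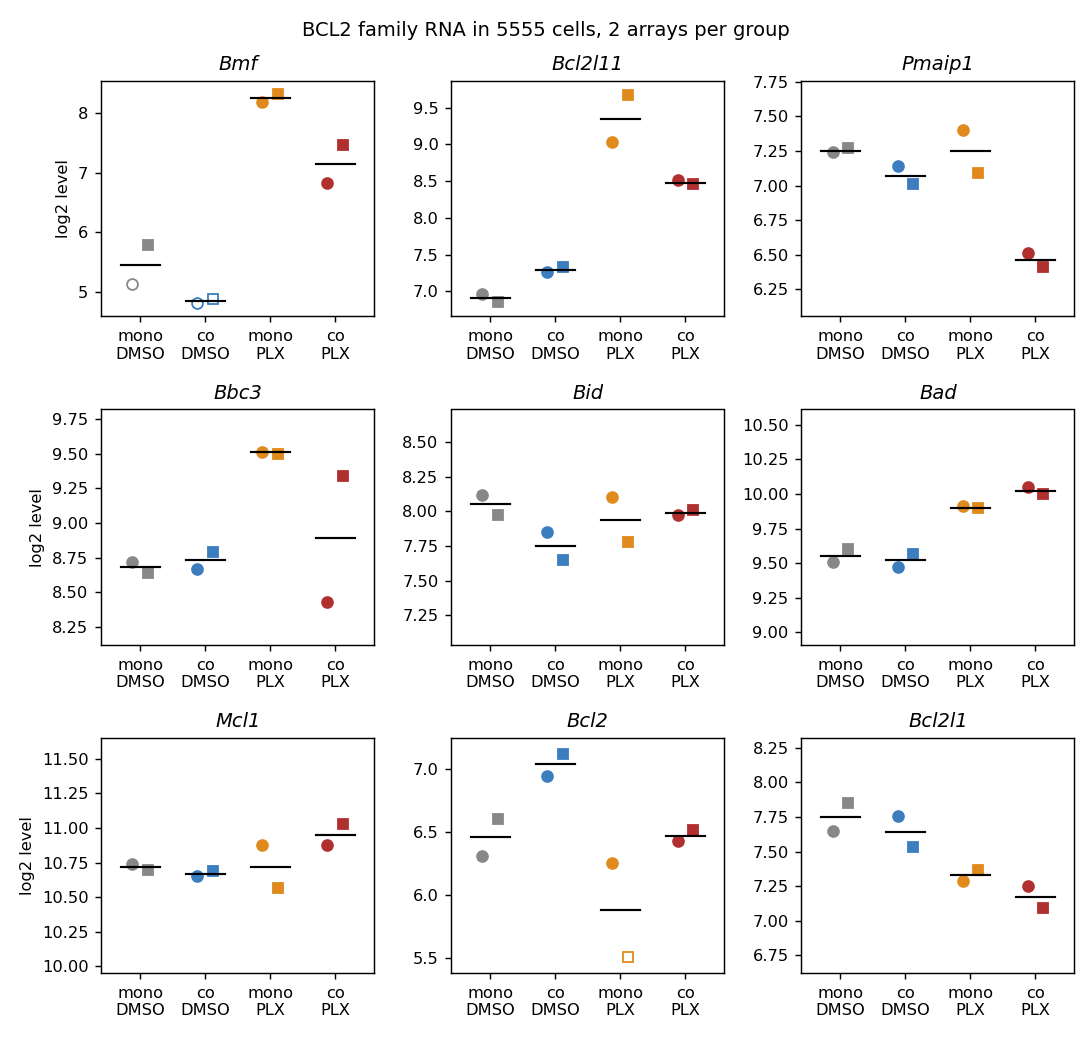
Log2 level (vertical axis) of the 9 measured genes on each of the 8 arrays. Circles are replicate 1, squares replicate 2, horizontal lines group means, and open symbols arrays on which the probe was not detected. Bmf and Bcl2l11 lie higher on all 4 PLX4720 arrays than on any DMSO array. Panels differ in their axis range.

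Bmf encodes a BH3-only protein that binds dynein light chain and pro-survival BCL2 proteins. Its log2 level was 5.13 and 5.78 on the mono-culture DMSO arrays, of which only the second was detected, and 4.81 and 4.88 on the co-culture DMSO arrays, where it was not detected. With PLX4720 it was 8.19 and 8.31 in mono-culture and 6.82 and 7.47 in co-culture. The 4 groups did not overlap, in the order mono-culture PLX4720, co-culture PLX4720, mono-culture DMSO and co-culture DMSO, and the DMSO groups did not differ beyond the adjusted threshold. In mono-culture Bmf rose by 2.80 on the log2 scale (standard error 0.24, 6.96-fold, limma adjusted p = 5.16e-05). In co-culture it was at least 2.98-fold higher with PLX4720, since its DMSO signal was only bounded by the lowest detected signal of those arrays (fitted log2 change 2.30, standard error 0.24, limma adjusted p = 0.000201). Leaving out any 1 array kept both calls, with log2 changes of 2.47 to 3.12 and 1.97 to 2.63. The size depended on the background: without its subtraction the changes were 1.43 and 0.89, and both still passed.

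Bcl2l11 encodes BIM, a BH3-only protein that can bind all pro-survival family members and activate the effectors. Its level was 6.96 and 6.85 in mono-culture DMSO, 7.26 and 7.33 in co-culture DMSO, 9.03 and 9.67 in mono-culture PLX4720 and 8.51 and 8.46 in co-culture PLX4720. No groups overlapped, and mono-culture PLX4720 was the highest. The rise was 2.44 on the log2 scale in mono-culture (standard error 0.19, 5.43-fold, limma adjusted p = 3.19e-05) and 1.19 in co-culture (standard error 0.19, 2.28-fold, limma adjusted p = 0.00187). Both held when any 1 array was left out (2.12 to 2.76 and 1.15 to 1.23). A second, dimmer probe for Bcl2l11 rose by 1.43 in mono-culture (adjusted p over probes 0.00477, limma), while its change of 0.47 in co-culture did not pass (0.278). This probe was detected on only 1 of the 2 DMSO arrays of each culture, so both changes rest in part on background signal. The other 2 Bcl2l11 probes were detected on no array.

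The promoters of these 2 genes and of Bbc3 are shown because FOXO factors, held out of the nucleus by growth factor signalling, are known activators of Bcl2l11 and Bbc3. RefSeq windows (GRCm38.p6, 250 bases before to 50 after an annotated start, 5′ to 3′ on the gene's strand) were given for 9 of the 10 genes, all but Pmaip1, with 17 windows in all. Capitals mark the FOXO core GTAAACA and the GC-box GGGCGG on either strand. The windows are the outer start of Bmf (chr2:118549637-118549936, minus strand), the outer start of Bcl2l11 (chr2:128125788-128126087, plus strand) and one of the inner starts of Bbc3 (chr7:16310011-16310310, plus strand). The Bbc3 window was picked because it holds the FOXO core, which the other Bbc3 windows lack, so its match is no separate result.
Bmf: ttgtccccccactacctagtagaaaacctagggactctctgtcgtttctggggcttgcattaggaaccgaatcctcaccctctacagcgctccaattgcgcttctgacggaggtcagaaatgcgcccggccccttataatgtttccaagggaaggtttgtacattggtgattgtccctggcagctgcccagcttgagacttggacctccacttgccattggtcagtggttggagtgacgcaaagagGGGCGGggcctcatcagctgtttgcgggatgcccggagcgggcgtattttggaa
Bcl2l11: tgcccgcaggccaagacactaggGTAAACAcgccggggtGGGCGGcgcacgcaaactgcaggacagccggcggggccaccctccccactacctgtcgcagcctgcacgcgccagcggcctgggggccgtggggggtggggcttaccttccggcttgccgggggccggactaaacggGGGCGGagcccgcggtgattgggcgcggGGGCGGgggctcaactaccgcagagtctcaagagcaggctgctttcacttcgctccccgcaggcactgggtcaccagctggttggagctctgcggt
Bbc3: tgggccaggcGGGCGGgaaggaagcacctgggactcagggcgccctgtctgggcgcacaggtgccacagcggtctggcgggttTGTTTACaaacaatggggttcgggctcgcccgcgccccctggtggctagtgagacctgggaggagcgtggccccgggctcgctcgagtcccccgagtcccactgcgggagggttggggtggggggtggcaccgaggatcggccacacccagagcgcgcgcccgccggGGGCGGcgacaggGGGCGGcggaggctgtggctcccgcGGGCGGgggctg
The Bcl2l11 window holds a FOXO core whose first base lies at -227 from the start and 3 GC-boxes, the Bbc3 window a FOXO core on the opposite strand at -167 and 4 GC-boxes, and the Bmf window a single GC-box at -4. Only these 2 of the 17 windows held the FOXO core, which 3.65% of 32851 RefSeq windows hold, and 11 held the GC-box, which 35.7% hold. The AP-1 element TGACTCA was in 0 member windows (5.2% of all), the E-box CACGTG in 2 (7.15%) and the ETS core CCGGAA in 5 (14.9%). GC-box matches overlapped each other 3 times, all in the Bbc3 windows. These are letter matches only, and the arrays did not measure binding.

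The BH3-only genes linked to p53, Bbc3 and Pmaip1, had different PLX4720 calls, Bbc3 higher in mono-culture and Pmaip1 lower in co-culture. No test compared the 2 genes. For co-culture against mono-culture under PLX4720 both differences were negative (-0.62 and -0.79), and only that of Pmaip1 passed. Bbc3 encodes PUMA, a BH3-only protein induced by p53 and by FOXO factors. Its level was 8.72 and 8.64 in mono-culture DMSO, 8.67 and 8.79 in co-culture DMSO, 9.51 and 9.50 in mono-culture PLX4720, and 8.43 and 9.34 in co-culture PLX4720. The co-culture PLX4720 arrays thus lay on either side of the DMSO arrays. In mono-culture Bbc3 rose by 0.83 on the log2 scale (standard error 0.24, limma adjusted p = 0.0229), and in co-culture it differed by 0.16 (standard error 0.24, adjusted p = 0.662). Without co-culture PLX4720 replicate 1 the co-culture change was 0.62 (adjusted p = 0.0181), and without replicate 2 it was -0.30. The mono-culture call was lost when any 1 of the 4 mono-culture arrays was left out (adjusted p = 0.0711 to 0.0877), without a filter (0.0633) and with the mean of the 3 Bbc3 probes (log2 change 0.25, adjusted p = 0.29). Over both cultures the probe rose by 0.49 (adjusted p = 0.0382), a call lost when any DMSO or mono-culture PLX4720 array was left out (0.0669 to 0.0993), without a filter (0.0975) and with the mean of probes (0.325). Another Bbc3 probe was detected on all 4 DMSO arrays and on no PLX4720 array, so it passed the filter through DMSO alone, and the last was detected on only 3 arrays. No fold is given for either.

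Pmaip1 encodes NOXA, a BH3-only protein that binds MCL1 and promotes its turnover. Its level was 7.24 and 7.27 in mono-culture DMSO, 7.14 and 7.01 in co-culture DMSO, 7.4 and 7.09 in mono-culture PLX4720 and 6.51 and 6.41 in co-culture PLX4720. Co-culture PLX4720 stood below all other arrays, and the remaining groups lay within a narrow range. With PLX4720 Pmaip1 fell by 0.61 in co-culture (standard error 0.14, limma adjusted p = 0.0107), while the mono-culture difference was -0.01 (standard error 0.14, 95% interval -0.32 to 0.30). The co-culture call was lost without co-culture DMSO replicate 1 (adjusted p = 0.0901) or co-culture PLX4720 replicate 2 (0.0535). Over both cultures Pmaip1 fell by 0.31 (adjusted p = 0.0272), a call lost without background correction (-0.15, adjusted p = 0.0699), under median scaling (0.079) and when any 1 of 6 arrays was left out (0.052 to 0.104), all but replicate 1 of both PLX4720 groups.

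Bad and Bid are BH3-only genes whose proteins are switched mainly after translation, Bad by phosphorylation through survival kinases and Bid by caspase cleavage downstream of death receptors. Bad was at 9.51 and 9.60 in mono-culture DMSO, 9.47 and 9.57 in co-culture DMSO, 9.91 and 9.90 in mono-culture PLX4720 and 10.05 and 10.00 in co-culture PLX4720. All 4 PLX4720 arrays lay above all 4 DMSO arrays, with close replicates. Bad rose by 0.35 in mono-culture (standard error 0.12, limma adjusted p = 0.0432) and by 0.50 in co-culture (standard error 0.12, adjusted p = 0.0129), a change of 1.27-fold and 1.41-fold. The mono-culture call lay near the threshold and was lost when any mono-culture array (adjusted p = 0.0779 to 0.175) or either co-culture DMSO array (0.0778) was left out, under median scaling (0.275), with a replicate block (0.058) and on the 4 mono-culture arrays alone (0.0749). The co-culture call was lost without either co-culture DMSO array (0.0581 and 0.113). Bid was at 8.12 and 7.97 in mono-culture DMSO, 7.85 and 7.65 in co-culture DMSO, 8.10 and 7.78 in mono-culture PLX4720 and 7.97 and 8.01 in co-culture PLX4720. Its PLX4720 differences of -0.11 (95% interval -0.44 to 0.22) and 0.24 (-0.09 to 0.57) did not pass.

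**Figure D2:**
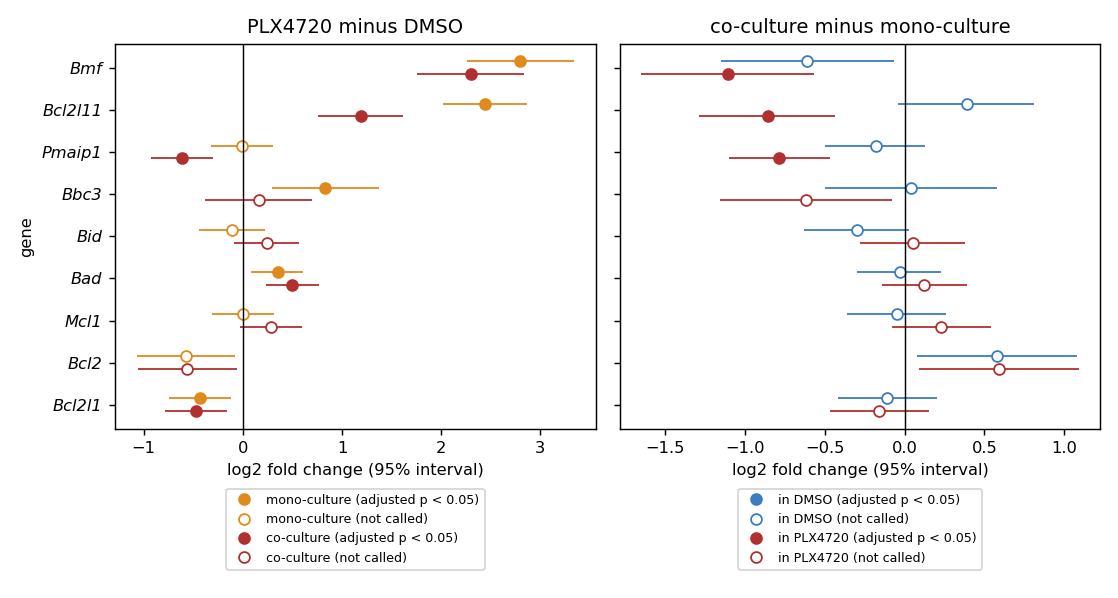
Log2 fold changes (horizontal axis) with 95% intervals for the 9 genes, for PLX4720 minus DMSO in each culture (left) and for co-culture minus mono-culture under each treatment (right). Filled points passed at an adjusted p under 0.05 over all genes. Bmf and Bcl2l11 show the largest PLX4720 changes, 2.80 and 2.44 in mono-culture, and no gene passed for co-culture in DMSO.

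Among the pro-survival genes, Bcl2 and Bcl2l1 fell modestly with PLX4720 over both cultures and Mcl1 did not pass. Mcl1, whose short-lived protein guards against BIM and NOXA, was at 10.74 and 10.70 in mono-culture DMSO, 10.65 and 10.69 in co-culture DMSO, 10.88 and 10.57 in mono-culture PLX4720 and 10.88 and 11.03 in co-culture PLX4720. The mono-culture groups overlapped. Its PLX4720 difference was 0.00 in mono-culture (95% interval -0.31 to 0.31) and 0.28 in co-culture (-0.03 to 0.60, limma adjusted p = 0.16).

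Bcl2l1, which encodes the pro-survival protein BCL-XL and a shorter form that promotes death, was at 7.65 and 7.85 in mono-culture DMSO, 7.76 and 7.53 in co-culture DMSO, 7.29 and 7.37 in mono-culture PLX4720 and 7.25 and 7.09 in co-culture PLX4720. All PLX4720 arrays lay below all DMSO arrays. Over both cultures Bcl2l1 fell by 0.45 on the log2 scale (standard error 0.10, limma adjusted p = 0.00453), with changes of -0.43 in mono-culture (adjusted p = 0.0356) and -0.47 in co-culture (0.0317). The mono-culture call was lost without mono-culture DMSO replicate 2 (adjusted p = 0.171), either mono-culture PLX4720 array (0.0816 and 0.14) or either co-culture DMSO array (0.0503), under median scaling (0.0746), without a filter (0.0561) and with the mean of its 3 probes (-0.19, adjusted p = 0.34). The co-culture call was lost without either co-culture DMSO array (0.0611 and 0.229), co-culture PLX4720 replicate 2 (0.127), under median scaling (0.152) and without a filter (0.0507). The second Bcl2l1 probe changed by -0.07 in mono-culture and -0.85 in co-culture (adjusted p over probes 0.00519), and the last by -0.07 and -0.65 (0.0726). Tested directly, co-culture minus mono-culture responses did not pass for any of the 3 probes (-0.05, -0.78 and -0.57, adjusted p over probes 0.932, 0.16 and 0.423). Which of the 2 protein forms each probe reads was not determined here.

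Bcl2, the founding pro-survival member, was at 6.31 and 6.61 in mono-culture DMSO, 6.95 and 7.12 in co-culture DMSO, 6.26 and 5.51 in mono-culture PLX4720, the latter array not detected, and 6.43 and 6.52 in co-culture PLX4720. Within each culture the PLX4720 arrays lay below the DMSO arrays. The difference was -0.57 in mono-culture (limma adjusted p = 0.0672) and -0.56 in co-culture (0.091), and over both cultures Bcl2 fell by 0.57 (standard error 0.16, adjusted p = 0.0146), a call lost without mono-culture DMSO replicate 2 (0.0508). Without mono-culture PLX4720 replicate 1 the mono-culture change was -0.95 and passed (0.00627), and without replicate 2, the array on which Bcl2 was not detected, it was -0.20 (0.443). The co-culture difference passed without either mono-culture PLX4720 array (0.0228 each) and on the 4 co-culture arrays alone (0.021). Of the 4 Bcl2 probes kept, a pair passed in both cultures. One, detected on all 8 arrays, had log2 changes of -0.74 and -0.97. The other, with -0.81 and -0.91, was detected on only 1 of the 2 PLX4720 arrays of each culture, so its fall runs into background. The mean of the 4 probes passed as well, at -0.62 in mono-culture (limma adjusted p = 0.0165) and -0.70 in co-culture (0.0127). It includes probes that were near background with PLX4720. The other 4 Bcl2 probes were detected on no array.

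**Figure D3:**
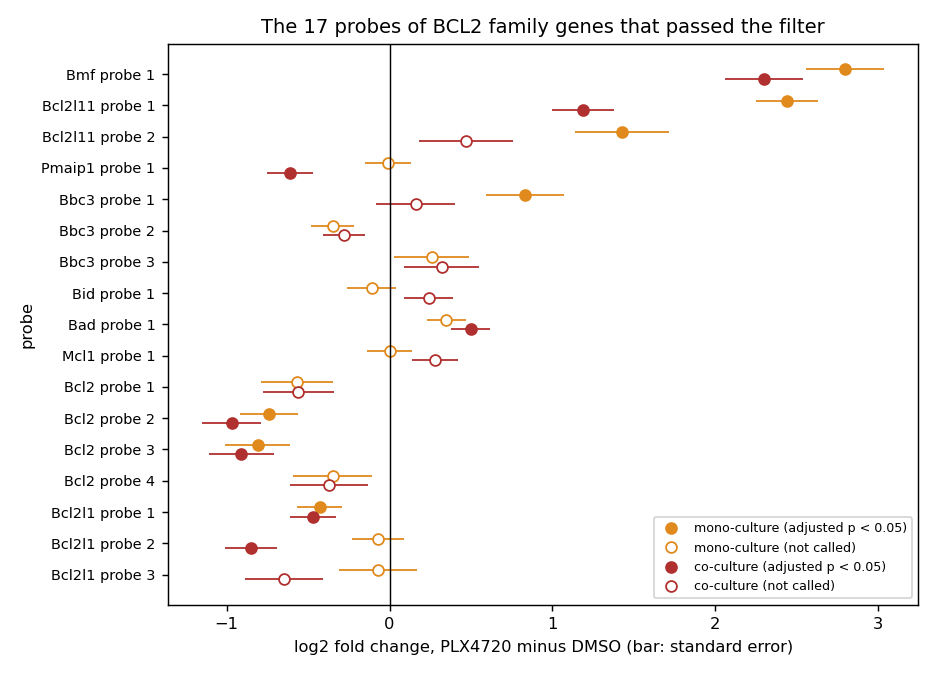
Log2 fold change of PLX4720 against DMSO (horizontal axis, bars are standard errors) for the 17 member probes that passed the filter, numbered within each gene by their order here. Filled points passed at an adjusted p under 0.05 over all 10660 probes kept. Bbc3 probe 2, which lies below 0, was detected on no PLX4720 array, and the 4 Bcl2 probes lie below 0 in both cultures.

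Fitted probe by probe, 4 of the 17 probes rose and 3 fell in mono-culture, where 36.2% of all probes passed, and 3 rose and 5 fell in co-culture, where 24.8% passed. Probes of a gene share its transcripts and are not independent. Over both cultures, 5 rose and 7 fell, against 43.7% of all probes, and those that fell include the Bbc3 probe detected on DMSO arrays alone. For co-culture against mono-culture, 0 passed in DMSO (1.11% of all probes), 4 were lower under PLX4720 (6.45%), and 0 passed for the difference of the PLX4720 effect (0.178%).

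No member passed for culture with fibroblasts in the absence of PLX4720. Sorting is stated only for the co-cultures, so its effect cannot be told apart from that of fibroblasts, here or under PLX4720. In DMSO, 0 of 9 members passed for co-culture against mono-culture, where 1.66% of all genes did, and at an unadjusted limma p under 0.05 Bcl2 was higher and Bmf, not detected in co-culture DMSO, lower, where 13.9% of all genes passed. The difference of Bcl2 was 0.58 (95% interval 0.08 to 1.08, limma adjusted p = 0.271), and that of Bcl2l11 was 0.39 (-0.04 to 0.81). The Student's t-test on the 4 arrays also called 0 members, with 1 higher at an unadjusted p under 0.05, where 11.8% of all genes passed. Of the fibroblast markers, 3 of 8 were lower in co-culture DMSO.

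Under PLX4720, 3 of 9 members (33.3%), the BH3-only genes Bmf, Bcl2l11 and Pmaip1, were lower in co-culture than in mono-culture, where 7.35% of all genes passed (3.89% higher and 3.47% lower). Bmf was 2.16-fold lower (log2 difference -1.11, standard error 0.24, limma adjusted p = 0.031), Bcl2l11 1.82-fold lower (-0.86, standard error 0.19, adjusted p = 0.0313) and Pmaip1 1.72-fold lower (-0.79, standard error 0.14, adjusted p = 0.0174). In each of these the 2 co-culture arrays lay below the 2 mono-culture arrays. With 2 arrays a group such an order is common without a difference, so it adds no support to the calls. The differences of Bbc3 (-0.62, adjusted p = 0.141) and Bcl2 (0.59, adjusted p = 0.13) did not pass. Bad, Bid, Mcl1 and Bcl2l1 differed by -0.16 to 0.23, although the second Bcl2l1 probe was lower in co-culture (-0.66, adjusted p over probes 0.0463).

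These 3 calls rested on few arrays. That of Bmf was lost without co-culture PLX4720 replicate 1 (-0.78, adjusted p = 0.158), either mono-culture PLX4720 array (0.0812 and 0.132) or either co-culture DMSO array (0.0532), and without a filter (0.0755) or with array weights (0.0524). That of Bcl2l11 was lost without mono-culture PLX4720 replicate 2 (-0.54, adjusted p = 0.121), either co-culture PLX4720 array (0.0749 and 0.135) or either co-culture DMSO array (0.0543), without a filter (0.0693), with array weights (0.0641) and on the 4 arrays compared alone (0.0614). That of Pmaip1 was lost without mono-culture PLX4720 replicate 1 (-0.63, adjusted p = 0.067) or co-culture PLX4720 replicate 1 (0.0762). The direction held in every setting in which each was computed. The difference of Bcl2 passed without mono-culture PLX4720 replicate 1 (0.97, adjusted p = 0.0293) and was 0.22 without replicate 2 (0.557). That of Bbc3 passed without co-culture PLX4720 replicate 2 (-1.08, adjusted p = 0.0143) and was -0.16 without replicate 1 (0.56). The Student's t-test on these 4 arrays called 0 members (at an unadjusted p under 0.05, 1 higher and 1 lower, where 12.2% of all genes passed). No fibroblast marker passed in this comparison (0 of 8).

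Whether the PLX4720 response itself differed between the cultures was tested directly, and 0 of 9 members passed (0.122% of all genes did). At an unadjusted limma p under 0.05, 2 members were lower, where 16.5% of all genes passed. The response of Bcl2l11 was smaller in co-culture by 1.25 on the log2 scale (difference -1.25, standard error 0.27, 95% interval -1.85 to -0.65, limma adjusted p = 0.0826). It passed without background correction (-0.92, adjusted p = 0.0391), with normexp at an offset of 50 (-1.12, adjusted p = 0.0304) and without mono-culture PLX4720 replicate 1 (-1.57, adjusted p = 0.0303). With any other array left out it did not pass, and over all 8 such fits it ranged from -1.57 to -0.93 with an adjusted p of up to 0.27. For Pmaip1 the difference was -0.60 (adjusted p = 0.184), and for Bbc3 -0.66 (0.356). That of Bmf did not pass (adjusted p = 0.497) and has no measured size, since Bmf was not detected in co-culture DMSO. These comparisons share arrays: the mono-culture PLX4720 arrays enter both the mono-culture response and the culture difference under drug.

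**Figure D4:**
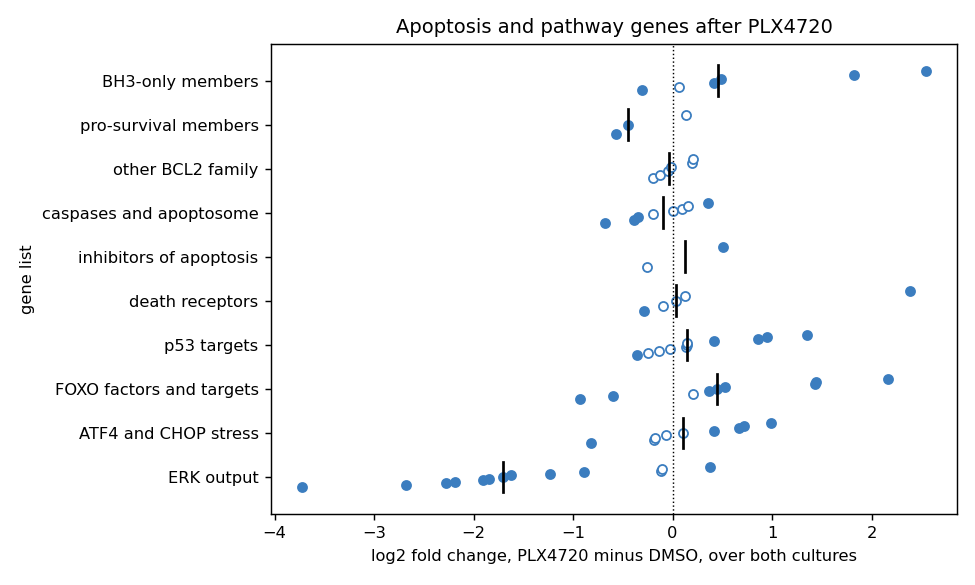
Log2 fold change of PLX4720 against DMSO over both cultures (horizontal axis) for the tested genes of each list (rows). Each point is a gene, filled where its adjusted p was under 0.05 over all genes, and vertical bars are list medians. The median of the fitted changes lies at -1.70 for the ERK output genes, some of them not detected with PLX4720, and at -0.04 for the other BCL2 family genes.

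Other genes of the apoptosis machinery moved less than Bmf and Bcl2l11, apart from Fas. Of 13 other BCL2 family genes with a probe, 6 were tested and 7, among them the BH3-only genes Bik and Hrk, were not detected. None of the 6 (Bak1, Bok, Bcl2l2, Bcl2l12, Bcl2l13 and Bnip3l) passed for PLX4720 over both cultures, and their median was -0.04. The effector gene Bak1 differed by -0.05 (95% interval -0.36 to 0.27), and Bok, an effector-like gene, rose in mono-culture (0.45, limma adjusted p = 0.0398), where its response did not differ beyond the threshold from that in co-culture (-0.48, adjusted p = 0.3). Of 8 tested genes of the caspases and the apoptosome, 1 rose and 3 fell over both cultures, where 46.5% of all genes passed (24.2% higher and 22.3% lower). Neither this count nor that of the death receptors below sets its list apart from all genes. Casp6, an executioner caspase gene, rose by 0.36, and Htra2 (-0.68) and Aifm1 (-0.39), which encode proteins of the mitochondrial intermembrane space, fell. The third that fell, the cytochrome c gene Cycs, was detected on no PLX4720 array and passed the filter through DMSO alone, and it was at least 1.11-fold lower in co-culture, while its mono-culture groups overlapped. Birc2, an inhibitor of apoptosis, rose by 0.51. Of 5 tested genes of the death receptors, 1 rose (Fas) and 1 fell over both cultures, the latter the initiator caspase gene Casp8 (-0.29, limma adjusted p = 0.0342). Fas, the gene of a death receptor, was detected on no DMSO array, so it passed the filter through PLX4720 alone. It was at least 2.80-fold higher with PLX4720 in mono-culture and at least 3.07-fold higher in co-culture (limma adjusted p = 0.000301 and 0.000205). These p-values rest on a DMSO signal at background.

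The genes known to share regulators with the members were also described by count. Over both cultures 46.5% of all genes passed for PLX4720 (24.2% higher and 22.3% lower). Beside these shares, the counts of the p53 and stress lists below do not set those lists apart. Of 12 FOXO factors and targets with a probe, 9 were tested, and Foxo3, Foxo4 and Sesn3 were detected on no array. Of the 9, 6 rose and 2 fell over both cultures (median 0.45, where the median of all genes was 0). Whether FOXO factors took part was not tested. Pik3ip1, an inhibitor of PI3K, was detected on no DMSO array, so it passed the filter through PLX4720 alone. With PLX4720 it was at least 3.96-fold higher in mono-culture and at least 2.11-fold higher in co-culture. Under PLX4720 it was lower in co-culture than in mono-culture (-0.89). Txnip rose by 1.43, and Gadd45a and Klf9 fell (-0.93 and -0.60). Of 11 tested p53 targets, 4 rose (Plk2 by 1.35, Sesn1 by 0.95, Trp53inp1 by 0.86 and Sesn2 by 0.42) and 1 fell, while Cdkn1a and Mdm2 differed by -0.25 and -0.14. Of 9 ATF4 and CHOP stress genes 4 rose and 1 fell. In the comparison of the cultures under PLX4720, 6 of 13 ERK output genes were higher in co-culture, where 3.89% of all genes were. The 6 included Egr1 (1.49), Dusp6 (1.65) and Fosl1 (at least 2.01-fold). In the other direction 1 gene, Dusp4, was lower (-0.75), where 3.47% of all genes were.

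Across the 8 arrays, Bmf and Bcl2l11 correlated with r = 0.926, and Bmf with Bcl2l1 at -0.744, which follows in part from the 4 groups that the arrays share. The genes most like Bmf over these arrays were Gab1 (r = 0.998), Klc4 (0.994), Apbb1 (0.992), Pfkm (0.992) and Arrdc4 (0.992), and those most opposed were Cd44 (-0.998), Zranb2 (-0.993), Donson (-0.991), Smyd5 (-0.990) and Clcf1 (-0.990). Each set was the extreme of all 7357 genes, and 8 arrays in 4 groups carry few independent points. Bmf was detected on only 5 of the 8 arrays, so its other values in these correlations are background signal. Gab1, an adaptor of receptor tyrosine kinases, changed by 1.10 and 0.90 with PLX4720 in mono-culture and co-culture, and Cd44, an adhesion receptor, by -1.52 and -1.26.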

How the data were processed

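The authors deposited mean bead intensities per probe and array, not normalized, on a linear scale, with detection p-values that compare each probe with the negative controls of its array, and a table of log2 values. Their processing notes name lumi, with no version. The deposited log2 values equal quantile-normalized log2 intensities without background subtraction (largest difference 5e-09). Arrays were assigned from their titles, and 0 columns were left unmapped.

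From the intensities, neqc of limma 3.58.1 in R 4.3.3 inferred the controls from the detection p, corrected the background and normalized, with an offset of 16. Probes were named through the platform annotation (23978 of 25697 have 1 symbol, 1719 none). The filter kept 10660 probes, which covered 7357 named genes. A linear model with 1 mean per group was fitted to the 8 arrays by lmFit, with moderation by eBayes (4 residual degrees of freedom, prior 5.49), and p was adjusted over all genes tested by the method of Benjamini and Hochberg. Where a group had no detected array, a fold is a lower bound: the mean of the detected group against, per array, the higher of the lowest detected signal and the gene's own. The scripts were tested on simulated data, and the number of arrays limits the precision. Arrays carry replicate labels, and deviations of equal numbers correlated between groups with r from -0.0836 to 0.0899, which shows no pairing.

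The members and lists were chosen with earlier results of these data known. Named genes are all members and, of the other lists, mainly up to 4 with the smallest p for PLX4720 over both cultures, and the 5 genes most and least like Bmf. Bok, Cdkn1a, Mdm2, Bak1, and the genes named for the culture difference were picked for contrast after their values were seen. Alternatives covered background correction, normalization, the filter, the choice of probe, a replicate block, the arrays in the fit, array weights, Student's t-test (the methods' t-test, named there for ranking genes) and each array left out, in 20 settings.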

Additional observations from a re-analysis of the deposited data

How the results depend on the processing

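Of 1038 recomputed member values over 20 settings, 912 kept direction and side of the threshold, 81 no longer passed, 16 newly passed and 29 changed sign, and the cause was not tested. The setting without background correction and that with the authors' log2 values use the same values, so they are 1 analysis counted under both names. The count of members called was 5 for PLX4720 in mono-culture and became 3 under median scaling, 3 without a filter and 0 by the methods' t-test. In co-culture it went from 5 to 0 by the t-test, for the cultures under PLX4720 from 3 to 1 without a filter, 1 with array weights and 0 by the t-test, and for the difference of the PLX4720 effect from 0 to 1 without background correction, with normexp at an offset of 50 and with the authors' log2 values. With 1 array left out the counts ranged from 2 to 5 (mono-culture), 2 to 6 (co-culture), 4 to 7 (both cultures), 0 to 3 (cultures under PLX4720) and 0 to 1 (difference of effects), and stayed at 0 in DMSO. The lone array of a group was then assumed to vary like the other groups.

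No value that changed sign passed before or after the change. The effect difference of Bcl2 was 0.01 and became -0.06 without background correction and with the authors' values, -0.05 with the offset of 50, -0.23 with detection on all 8 arrays (another probe) and -0.08 with the mean of probes. Median scaling gave -0.12 for Mcl1 in mono-culture, -0.02 for Bbc3 between cultures in DMSO and 0.06 for the effect difference of Bcl2l1, and the mean of probes gave -0.01 for Bbc3 and 0.04 for Bcl2l1 between cultures in DMSO. With 1 array left out, the effect difference ranged from -0.36 to 0.39 for Bcl2 and -0.16 to 0.06 for Bcl2l1. The PLX4720 change in mono-culture ranged from -0.15 to 0.16 for Mcl1, -0.16 to 0.15 for Pmaip1 and -0.27 to 0.05 for Bid, that over both cultures from -0.01 to 0.14 for Bid, and that in co-culture from -0.30 to 0.62 for Bbc3. Between cultures it ranged in DMSO from -0.08 to 0.02 for Bad, -0.02 to 0.11 for Bbc3 and -0.22 to 0.00 for Bcl2l1, and under PLX4720 from -0.11 to 0.21 for Bid.

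Over all genes, calls between cultures in DMSO (122) became 210 without background correction and with the authors' values, 198 with the offset of 50, 65 without a filter, 244 with array weights and 0 by the t-test. Under PLX4720 (541) they became 887, 887, 791, 196, 197 and 0, and 190 on the 4 arrays alone. Those of the effect difference (9) became 95, 95, 122, 110 (median scaling), 28 (all 8 arrays), 19 (probes) and 52 (replicate block). By the t-test 0 genes passed in mono-culture (2850) and 7 in co-culture (1987). With 1 array left out, calls ranged from 992 to 1946 for PLX4720 in co-culture, 17 to 141 and 15 to 625 between the cultures and 2 to 35 for the effect difference. Median scaling turned the split of higher and lower calls from 1053 and 934 to 1098 and 567 for PLX4720 in co-culture, from 286 and 255 to 339 and 112 between cultures under PLX4720 and from 3 and 6 to 85 and 25 for the effect difference, with a shift of the median of all genes of 0.101 and 0.156 in the last pair. With the replicate block, Bad in mono-culture was lost (adjusted p = 0.058) and no other member call changed, and the numbers are not known to pair the arrays. Bmf has no value with detection on all 8 arrays, and the t-test and the fit on the arrays compared were not run over both cultures or for the effect difference. Probes near background, those of Bmf in DMSO above all, set a limit on fold sizes.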
